A study of Drosophila melanogaster with 4 samples.

Results

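The genes described here were 10 regulators of the embryonic cell cycle of Drosophila melanogaster, namely stg, twe, Cdk1, CycA, CycB, CycB3, CycD, CycE, dap and fzr. They were named for their known roles, with earlier results of these data known, and they made up 10 of the 13968 protein-coding genes annotated on the assembled chromosomes. A transcription start site (TSS, the single base at which a transcript begins) was given to a gene if it lay within 200 bp, on the same strand, of an annotated transcript start of that gene. By this rule the 10 genes held 418 of the 232302 TSSs in the full list, all 10 had at least 1, and no TSS was shared with another gene. All positions are on dm6, with gene models from Ensembl release 115.

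Short capped RNAs were sequenced from the 5′ end (csRNA-seq), so that the first base of a read marks where RNA polymerase II began. The embryos came from Canton S wild-type flies kept in population cages, were 0 to 12 h old and received no treatment. GEO lists 3 csRNA libraries and 1 input library of the short RNA set aside before cap enrichment, with no second genotype, stage or treatment to compare. The collection held whole embryos of mixed age and cell type, so fewer cells that use a start and fewer initiation events per cell cannot be told apart, and csRNA coverage says nothing of the amount of mRNA or protein.

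Cell division in flies is driven by cyclin-dependent kinases, which act only when bound to a cyclin, are held back by inhibitory phosphates and inhibitor proteins, and are switched off when the anaphase-promoting complex has the cyclin destroyed. The early embryo divides with no gap phases on products loaded by the mother, and the later embryonic divisions wait for zygotic transcription of stg, the Cdc25 phosphatase that removes the inhibitory phosphates from Cdk1. When a lineage leaves the cycle, dap blocks CycE with its kinase, and fzr directs the anaphase-promoting complex against the mitotic cyclins.

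The deposited value of a TSS is its coverage, a read number scaled to 10000000 reads. Each value could be written as a whole number of reads in 1 of 3 libraries of 7299457, 5931389 and 4070746 reads, in which 1 read was worth 1.37, 1.69 and 2.46 units of coverage. This held for 232302 of 232302 TSSs at a relative tolerance of 1e-09, and 128, 150 and 140 of the members' TSSs came from these libraries in that order. Which replicate each library was, and why a TSS took its value from that library, are not given in the sources used here. A TSS counts in 1 library alone, so sums given by library divide the bases of a promoter between the libraries and are not replicate measurements of it. Since each TSS had 1 value, no spread between replicates could be computed and no test was made. The 95% intervals below cover counting error only, and copies made by PCR were not told apart. The members' TSSs were mostly shallow, with a median of 5 reads and 152 of 418 under 4 reads, while 28 had a coverage of 100 or more.

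The age of the sample was checked against marker genes. All 9 early zygotic genes on the list had TSSs, with a median coverage of 235 and a range from 16.4 at nullo to 3341 at halo, and so did all 5 markers of differentiating embryonic tissue, from 111 at btl to 844 at repo with a median of 423. Of 11 genes for yolk, chorion, salivary glue, a storage protein and testis, 7 had no TSS (Yp1, Yp2, Cp15, Cp18, Sgs3, Sgs7 and Mst87F), against 70% of all protein-coding genes with at least 1. The highest of the 11, the testis tubulin gene betaTub85D, reached 31.9, which was above the zygotic genes nullo and zen (20.8).

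Summed over its TSSs, the coverage of a gene ran from 169 at twe to 14516 at dap, which held 48.4% of the 29991.6 units found at all 10 genes. The order after dap was stg (5222), CycB (2800), fzr (2186), CycA (1379), CycD (1364), CycE (1127), Cdk1 (842), CycB3 (386) and twe. Neighbours in this order had separate counting intervals except CycA and CycD, whose ratio was 1.01 (0.912 to 1.12). The order was not the same in the TSSs of each library, where a base counts only in the library that gave its value. In those of the library of 7299457 reads, which gave 12891 of the coverage of dap, dap led with 69.7% of the members' coverage. In the TSSs of the library of 5931389 reads CycD led (993) and dap was 8th with 131.5 and percentile 80.9. In those of the library of 4070746 reads stg led (4397) before dap (1494). The leading base of dap is absent from both of these sums, so they do not measure dap as a whole. The lowest sum was that of twe in all 3, with CycB3 next to it, over different bases in each. Every protein-coding gene was ranked in the same way, and the members had a median coverage of 1371 and a median percentile of 91.9, against a median of 172.7 for genes with a TSS and 61.9 for all protein-coding genes. Having a TSS at all was common, since 70% of protein-coding genes had at least 1. A highest TSS of 100 or more was reached by 8 of the 10 members, all but CycB3 and twe, and by 25.9% of protein-coding genes.

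**Figure D1:**
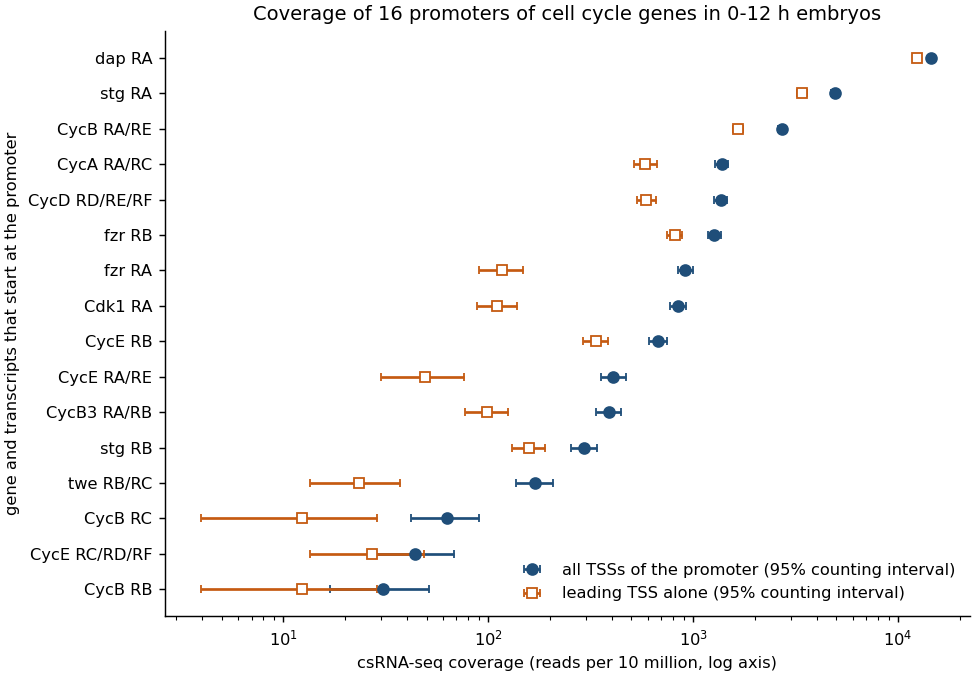
Summed start coverage of the 16 annotated promoters that held a TSS, on a log axis of reads per 10000000, with bars for 95% counting intervals. The dap promoter stands highest at 14516 and the weakest CycB promoter lowest at 30.7.

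The members had 17 annotated promoters between them when starts of a gene up to 100 bp apart were taken as 1, and 16 of these held a TSS. For each promoter the description below gives the leading TSS (that with the highest coverage), its distance from the annotated start (plus is downstream), and the share of the promoter's coverage that it held. The width is the stretch that held the central 80% of the coverage. Over the 6666 promoters of protein-coding genes with a coverage of 100 or more, the median share at the leading TSS was 38.7% and the median width was 24 bp.

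The 2 Cdc25 phosphatases lay at opposite ends of the order. String (stg, FBgn0003525, chromosome 3R, 29251826 to 29255800, minus strand) had 29 TSSs with a coverage of 5222 (5009 to 5441, 2364 reads), which placed it at percentile 97.7 of protein-coding genes. Twine (twe, FBgn0002673, chromosome 2L, 16259414 to 16261877, minus strand), the Cdc25 known for meiosis and for the maternally driven divisions, had 19 TSSs with a coverage of 169 (137 to 207, 103 reads), at percentile 64.7. The coverage of stg was thus 30.9 times that of twe (25.2 to 37.8), and twe stood at 0.978 times the median of genes with a TSS.

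At stg the signal came from 2 starts 475 bp apart, and more of it from the downstream one. The RA promoter (annotated start 29255325) had a coverage of 4928 (4719 to 5143), which was 94.4% of the gene. Its leading TSS at 29255323, 2 bp inside the annotated start, had 3392 (3216 to 3576, 1381 reads). The next bases downstream, at +3 and +4, had 825 and 327. These 3 neighbouring bases carried most of the promoter, with 68.8% at the leading TSS and a width of 3 bp. The RB promoter (start 29255800) had 294 (254 to 339), or 5.63% of the gene, with its leading TSS at +8 (158, 115 reads). RA exceeded it by 16.8 times (14.5 to 19.4), and it had 1.74 times the coverage of the whole twe gene (1.36 to 2.22). RA exceeded RB in the TSSs of each library, by 1.47 times (370 and 252) in that of 7299457 reads, 39.0 times (197 and 5.06) in that of 5931389 and 118 times (4360 and 36.8) in that of 4070746, which supplied the RA peak. These sums cover different bases, so they are not repeat measurements of the ratio. Only in the TSSs of the library of 7299457 reads, which supplied the leading base of each, did RB exceed twe (252 and 74.0). The sum of twe was higher in those of the other libraries. Both stg transcripts share the start codon at 29254928, so the choice of promoter changes the spliced leader (395 bases from the leading TSS of RA, 864 from that of RB) and not the protein.

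Initiation at twe had no such peak. The 19 TSSs lay from +35 to +116 of the RB and RC start (16261764), and the 3 highest had 23.3 at +71 (17 reads), 20.5 at +68 and 20.5 at +59 (15 reads each). The leading TSS held 13.8% of the coverage and the width was 44 bp. No TSS was nearer to the RA and RD start, which is annotated 113 bp further upstream. Because many of the twe TSSs lay beyond 50 bp, counting only TSSs within 50 bp of a start raised the ratio of stg to twe to 149. At their leading TSSs alone, stg was 146 times twe (90.3 to 235). Divided by the library that gave each TSS its value, stg had a higher sum than twe in all 3. Each sum covers different bases, so the ratio was not measured 3 times. These sums were 622 and 74.0 in the library of 7299457 reads, 202 and 55.6 in that of 5931389, and 4397 and 39.3 in that of 4070746, so the size of the difference rested on the last of these, which supplied the leading TSS of stg.

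**Figure D2:**
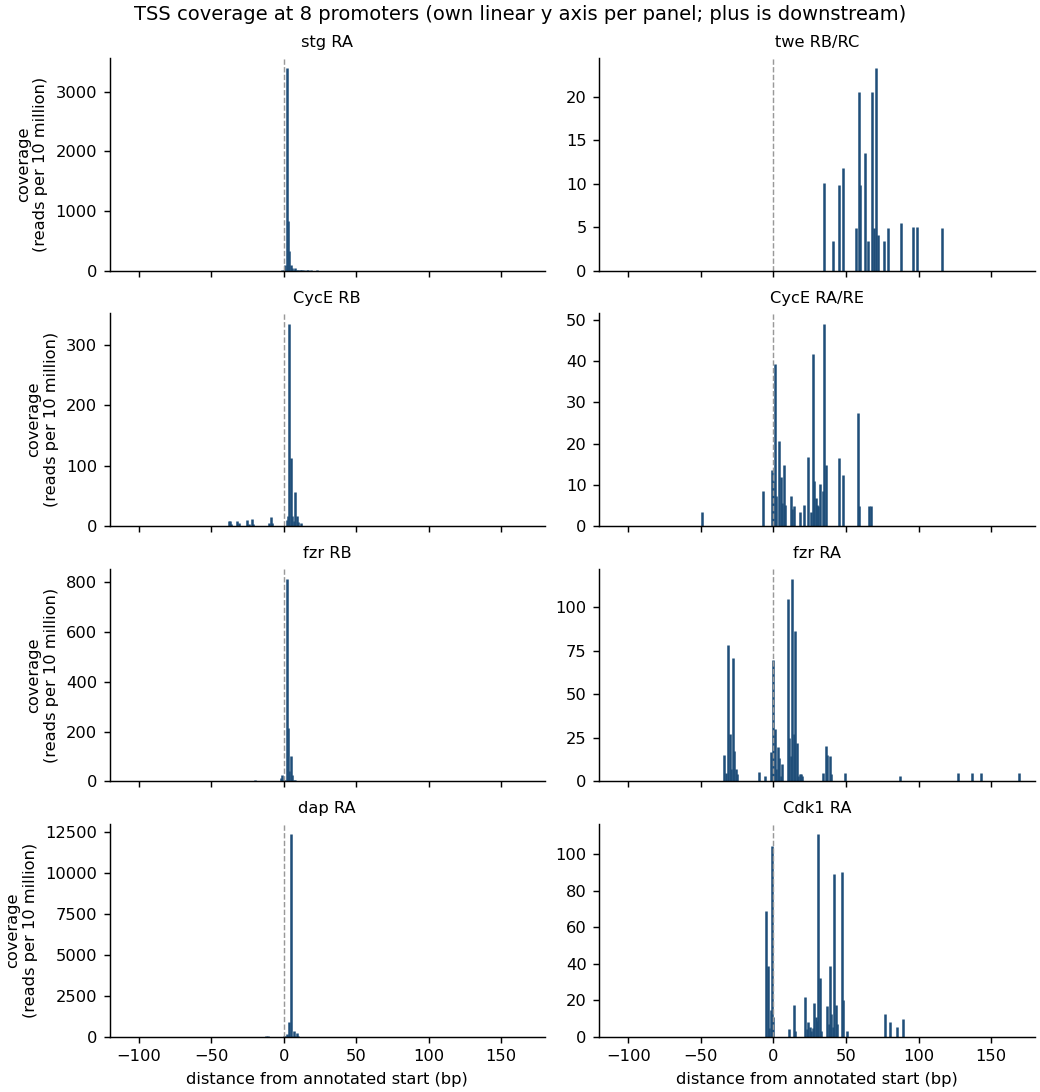
Coverage of each TSS (reads per 10000000, a linear y axis of its own in each panel) against distance from the annotated start in bp at 8 member promoters. The dap profile is a single spike at +5, and stg RA peaks at +2 with lower values at +3 and +4. The twe TSSs lie downstream of the annotated start, none above 23.3.

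The kinase Cdk1 and the mitotic cyclins had moderate to high coverage with summed values in the order CycB, CycA, Cdk1 and CycB3. Cyclin B (CycB, FBgn0000405, 2R, 22803521 to 22806948, minus strand), a partner of Cdk1 at entry into mitosis, had 2800 (2674 to 2932, 1912 reads) and stood at percentile 95.7. Cyclin A (CycA, FBgn0000404, 3L, 11826719 to 11833578, minus strand), which is essential for mitosis in the fly embryo, had 1379 (1278 to 1486) at percentile 91.9. Cyclin B3 (CycB3, FBgn0015625, 3R, 24867934 to 24870816, minus strand), a nuclear B-type cyclin with a part in anaphase, had 386 (336 to 443) at percentile 78.3. CycB therefore had 2.03 times the coverage of CycA (1.86 to 2.22) and 7.25 times that of CycB3 (6.28 to 8.36). The excess over CycA rested on bases valued from the library of 7299457 reads, which supplied the CycB peak (2292 for CycB and 408 for CycA). The TSSs of the libraries of 5931389 and 4070746 reads do not include the CycB peak. In these CycB had 172 and 337, below the 268 and 703 of CycA, and it exceeded CycB3 by 1.55 and 2.54 times. Cdk1 itself (FBgn0004106, 2L, 10384739 to 10386262, minus strand) had 842 (770 to 921), and CycA exceeded it by 1.64 times (1.46 to 1.84). Divided by library, CycA and Cdk1 had 408 and 362, 268 and 319, and 703 and 162. The excess rested on bases valued from the library of 4070746 reads, which supplied the leading TSS of CycA. Cdk1 had the higher sum in the TSSs of the library of 5931389 reads, which lack that base.

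The 4 genes differed in shape as well as in level. CycB used 1 base at +22 of its RA and RE start (22806948) for 61.3% of that promoter, with 1659 at that base (1211 reads) and 263 at the next one downstream. Within the same run of starts, from +3 to +64, a base at +51 had 136. The other annotated CycB starts were weak. The RC start at 22806303 had 62.7 (41.9 to 90.6, 30 reads over 9 TSSs) and the RB start at 22806499 had 30.7 (17.0 to 51.6, 15 reads over 5 TSSs). These were 2.24% and 1.10% of the gene, and no TSS at either exceeded 12.3. The same maximum was found among 34 sense TSSs inside CycB away from annotated starts, which summed to 180. Coverage at the RC and RB starts was therefore not told apart from such TSSs. Those at RB were 5 single bases from -173 to +34, each more than 10 bp from the next. Neither start had a TSS in the deduplicated list of the authors, which keeps 1 TSS for each group of overlapping windows and so does not bear on their level.

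CycA initiated downstream of its annotated start. Its leading TSS was at +61 (585, 513 to 664, 238 reads) and held 42.4% of the coverage, with 107 at the next base downstream. TSSs from +40 to +71, each within 10 bp of the next, summed to 847, or 61.4% of the promoter. A second group from -10 to +28, around the annotated start at 11833578, summed to 509, with peaks of 111 at +4 and 99.5 at +16. By a gap of 10 bp, chosen after seeing the positions, CycA thus had 2 main groups of starts in 1 annotated promoter. The upstream group ends at +28 and the downstream group begins at +40, so a slightly wider gap would join them. Both lie ahead of the start codon, which is 449 spliced bases from the leading TSS.

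By the same gap Cdk1 also had more than 1 group, and it had no dominant base. A slightly wider gap would join the group that ends at 0 to that which begins at +11. A compact group of 6 bases from -5 to 0 summed to 243, led by 105 at -1 (62 reads). A longer group from +11 to +51 summed to 564, led by 111 at +31 (81 reads) with 90.4 at +47 and 89.0 at +42. The counting intervals of the highest bases overlapped, so the leading TSS of Cdk1, with 13.2% of the coverage, was not told apart from the next. A further 4 TSSs from +77 to +89 summed to 35.8. Of these, that at +85 lay on the first base of the annotated start codon and that at +89 lay beyond it. From its leading TSS, the Cdk1 leader up to the start codon is 54 bases long. CycB3 was the most spread of the group, with a width of 116 bp and TSSs from -56 to +152. Its leading TSS at +5 had 98.6 (72 reads) and 25.5% of the coverage, and the remaining 33 TSSs had at most 36.8.

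The cyclins of the G1 phase had totals close in size, with CycD at 1.21 times CycE (1.09 to 1.35), and very different architectures. CycD and CycE had 155 and 193 in TSSs of the library of 7299457 reads, 993 and 602 in those of 5931389, and 216 and 332 in those of 4070746. The excess of CycD rested on bases valued from the library of 5931389 reads, which supplied the leading TSS of each gene. Cyclin D (CycD, FBgn0010315, X, 15906822 to 15909676, minus strand), the partner of Cdk4 with a role in growth, had 1364 (1269 to 1465, 790 reads) at percentile 91.9, all from 1 annotated promoter of 3 transcripts. Its leading TSS at +18 had 590 (530 to 655, 350 reads), or 43.3%. The next 3 were 137 at +19, 133 at +27 and 115 at +40, so the promoter had a main base with weaker starts downstream over a width of 23 bp.

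Cyclin E (CycE, FBgn0010382, 2L, 15727581 to 15748150, minus strand), which with Cdk2 drives entry into S phase, had 1127 (1039 to 1221, 633 reads) at percentile 90.3, divided over 3 annotated promoters. The most downstream one, of transcript RB at 15731784, had 674 (608 to 746), or 59.8% of the gene. The most upstream one, of RA and RE at 15748150, had 409 (355 to 469), or 36.3%. The middle one, of RC, RD and RF at 15746610, had 43.9 (26.9 to 68.0, 21 reads over 5 TSSs), or 3.89%, of which 27.0 lay at +1. The upstream and middle starts are 1540 bp apart, and the RB start lies a further 14826 bp downstream, outside every exon of the longer transcripts. RB has its own annotated start codon at 15731037, whereas that of RA and RE is at 15740791, so these 2 promoters give proteins that begin differently.

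The 2 main CycE promoters differed more in shape than in sum. RB exceeded RA and RE by 1.65 times (1.39 to 1.95) in summed coverage and by 6.83 times (4.31 to 10.8) at the leading TSS. The RB promoter peaked at +4 with 336 (291 to 385, 199 reads) and at +5 with 113, and 85.1% of its coverage lay within 5 bp of the peak. The RA and RE promoter had 33 TSSs, of which the highest were 49.1 at +35 (20 reads), 41.8 at +27 and 39.3 at +1. Its leading TSS held 12.0%, its width was 58 bp against 19 bp for RB, and 22.6% lay within 5 bp of the leading TSS. The order of the summed values rested on bases that took their value from 1 library. In TSSs with values from the library of 5931389 reads, RB had 504 and RA with RE 80.9, while the sums were 76.7 and 116 in the library of 7299457 reads and 93.3 and 211 in that of 4070746. The leading RB base took its value from the library of 5931389 reads. It is absent from the other sums, so these do not show a different order of the whole promoters.

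Use of more than 1 promoter was set against other genes. Among genes with at least 2 annotated promoters and a TSS, 33% had 2 or more promoters that each held 10% or more of the coverage. Of the 5 members in this class (stg, twe, CycB, CycE and fzr), 2 did, CycE and fzr.

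**Figure D3:**
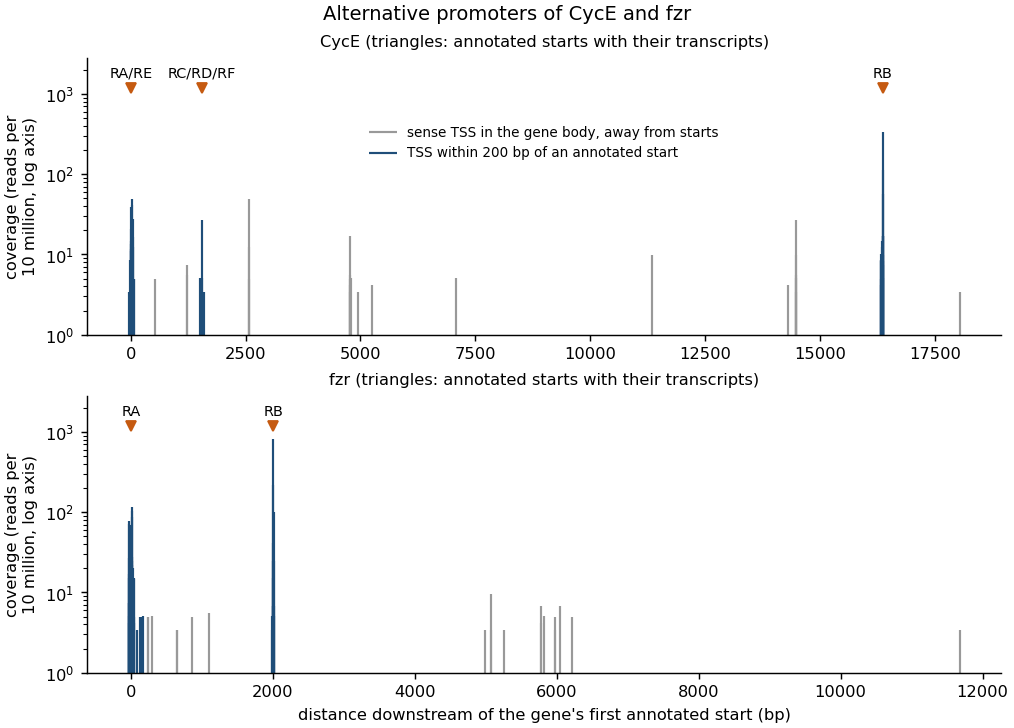
Coverage of each TSS (reads per 10000000) against distance from the most upstream annotated start along CycE and fzr, on log axes for coverage. In both genes the downstream promoter has the taller single base, 336 at CycE RB and 814 at fzr RB, over broad upstream promoters whose highest bases are 49.1 and 116.

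The inhibitors of the cycle were 1st and 4th of the members by summed coverage. Dacapo (dap, FBgn0010316, 2R, 9712321 to 9716256, plus strand), the p21 and p27 type inhibitor of the CycE kinase, had 14516 (14230 to 14808, 10096 reads), the 84th highest of the protein-coding genes and 84.1 times the median of genes with a TSS. This was 2.78 times stg (2.66 to 2.91) and 12.9 times CycE (11.9 to 14.0), the cyclin it blocks. The size of both ratios rested on bases valued from the library of 7299457 reads, which supplied the dap peak. In the TSSs of the library of 5931389 reads dap (131.5) was below stg (202) and CycE (602). In those of the library of 4070746 reads it was 0.34 times stg and 4.50 times CycE. Neither set includes the dap peak, so the ratios were not measured again. A single base carried the dap promoter. The TSS at 9712326, 5 bp inside the annotated start, had 12357 (12103 to 12615, 9020 reads), and the next bases were 884 at +4, 378 at +7, 218 at +9 and 188 at +2. The leading TSS held 85.1% of the coverage and the central 80% fell on 1 base.

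Fizzy-related (fzr, FBgn0262699, X, 4667290 to 4679537, minus strand), the Cdh1-type activator that turns the anaphase-promoting complex on mitotic cyclins, had 2186 (2070 to 2307, 1404 reads) at percentile 94.7. Like CycE it had a broad upstream promoter and a narrower downstream one, here 2004 bp apart. The RB promoter (start 4677533) had 1271 (1184 to 1364) over 13 TSSs, or 58.2% of the gene, and the RA promoter (start 4679537) had 915 (840 to 995) over 42 TSSs. RB peaked at +2 with 814 (750 to 882, 594 reads), with 216 at +3, and had a width of 4 bp. RA had 116 at +13, 105 at +10 and 86.3 at +15, and a separate group from -34 to -25 that summed to 232 and peaked with 78.1 at -31. Its leading TSS held 12.7% and its width was 51 bp.

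The RB promoter of fzr exceeded RA by 1.39 times (1.25 to 1.55) in sum and by 7.0 times (5.45 to 8.98) at the leading TSS. This order too differed when the TSSs were divided by library, which leaves the leading RB base in a single sum. TSSs with values from the library of 7299457 reads gave 962 for RB and 382 for RA, those from the library of 4070746 reads gave 283 and 128, and those from the library of 5931389 reads gave 27.0 and 405. Both fzr transcripts share the start codon at 4676375, with spliced leaders of 457 bases (RA) and 374 bases (RB) from the leading TSS, so here the promoters do not differ in the protein they encode.

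Placed together, the member promoters ran from single-base to dispersed initiation. Of the 13 with a coverage of 100 or more, 5 had at least 50% at the leading TSS (dap RA, stg RA, fzr RB, CycB RA and RE, and stg RB), against 38.4% of all such promoters. The leading TSS lay within 10 bp of the annotated start in 6 of the 13 (both stg promoters, CycB3, CycE RB, dap and fzr RB), against 51.5%. Neither count stood far from the background. In percentiles of the share at the leading TSS, dap was at 94.0, stg RA at 79.1, fzr RB at 74.3 and CycB at 71.8. The low end held twe at 4.58, Cdk1 at 3.62, fzr RA at 3.02 and the RA and RE promoter of CycE at 2.01. The value of twe rested on 103 reads. At each of these 4, initiation was spread over many bases with no dominant one.

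**Figure D4:**
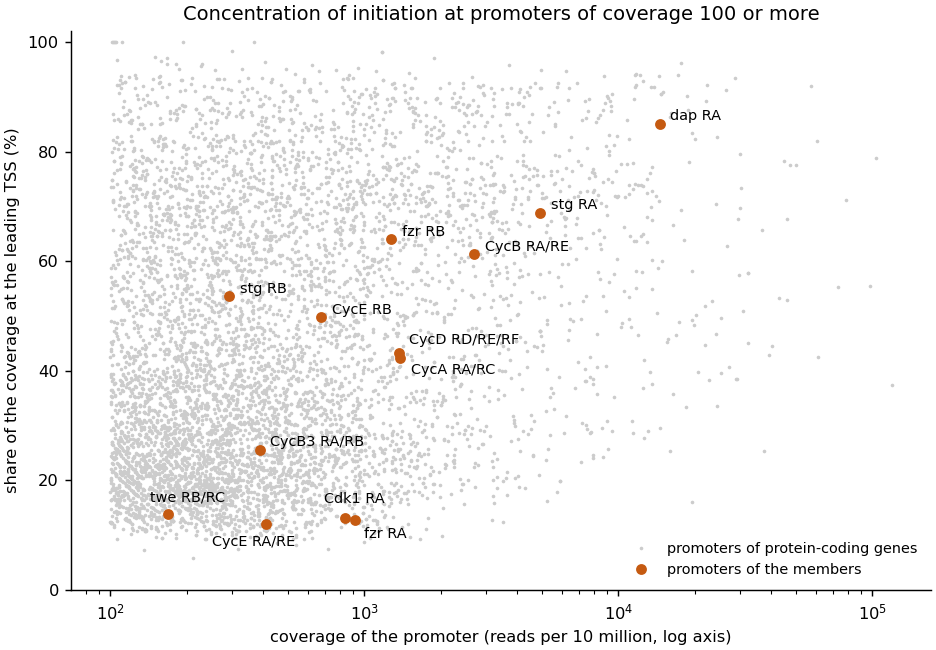
Share of a promoter's coverage at its leading TSS (%) against summed coverage (log axis, reads per 10000000) for the 13 member promoters of coverage 100 or more, over all 6666 such promoters. The dap promoter sits at 85.1% and the upstream promoters of CycE and fzr at 12.0% and 12.7%.

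The wider cell cycle machinery had a lower median coverage than the members. Of 72 other cell cycle genes listed by role, 71 matched the annotation and 70 had a TSS, with a median coverage of 237 and a median percentile of 70.4. A TSS of 100 or more was found in 22 of the 71, against 25.9% of protein-coding genes. Of the 71, 59 lay above the median of all protein-coding genes, and none exceeded dap or stg. The highest was trbl (2751), which encodes an inhibitor that promotes the turnover of String. It led the regulators of Cdk1 phosphorylation and of Cdc25 (median 702 over 7 genes), in which the inhibitory kinase gene Myt1 had 21.5.

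The factors of the G1 to S step had a median of 442 over 9 genes, from 108 at Rbf2, a retinoblastoma family gene, to 1330 at E2f1, an activator of S-phase genes. The other cyclins and Cdks had a median of 236, from 27.4 at CycJ to 1724 at CycG. Replication licensing had 247, from 11.6 at the origin recognition gene Orc5 to 910 at geminin, the licensing inhibitor. Chromosome segregation had 274, from 61.4 at the kinase gene aurA to 1866 at borr of the chromosomal passenger complex. The checkpoint genes had 228, from 45.1 at mus304 to 721 at Bub3. Lowest by median were the 3 genes of the maternal PNG kinase (135 at plu, 41.8 at gnu) and the anaphase-promoting complex (81.3 over 12 genes). Within the latter, the subunit gene Cdc23 had no TSS, and fzy, the activator of the complex in mitosis, was highest with 1353, below its relative fzr.

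**Figure D5:**
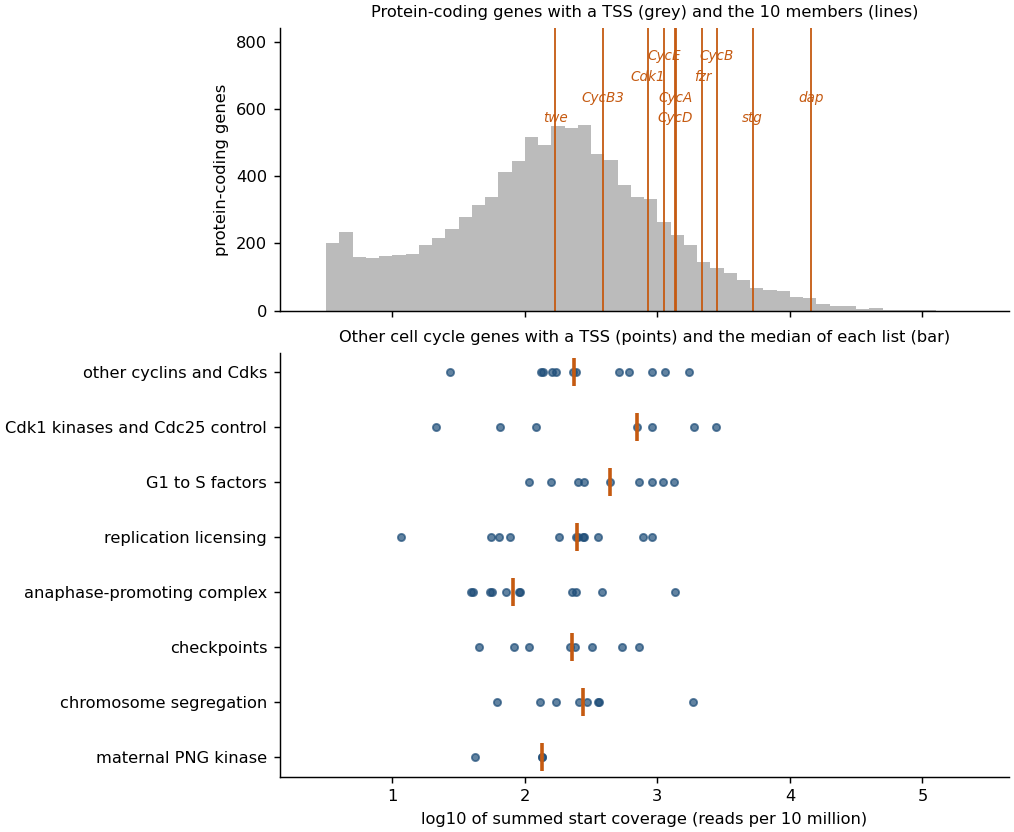
Log10 of summed start coverage (reads per 10000000): above, counts of protein-coding genes with a TSS, with a line for each member; below, 1 point for each other cell cycle gene with a TSS, with the median over all matched genes of a list as a bar. The members' lines run from twe near the middle of the distribution to dap in its upper tail, and no point lies above the 2751 of trbl.

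Beyond the annotated starts, every member had some sense TSSs inside the gene and more than 200 bp from any annotated start on their strand, from 1 at twe and CycD (3.37 each) to 34 at CycB (180). CycE had the highest sum of these (204 over 23 TSSs). Such TSSs were present in 46% of protein-coding genes. Antisense TSSs chosen in the same way were found in 9 of 10 members, all but twe, against 40.2% of protein-coding genes, and CycA had the most (334 over 21 TSSs). These counts were not adjusted for gene length, which ran from 1524 bp at Cdk1 to 20570 bp at CycE, or for the coverage of the gene.

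Upstream of the members, antisense initiation within 1000 bp was mostly weak or belonged to an annotated neighbour. Cdk1 had 15 such TSSs with a sum of 93.4, the highest (14.7) at 428 bp and 3 bp from the start of the divergent gene mRpS7. At twe there was 1 (43.8, at 480 bp, by CG4935), at stg RA 1 (28.7, at 317 bp), at dap 7 summing to 63.0, and at CycB 3 summing to 32.0. The strongly initiating dap promoter thus had upstream antisense coverage far under its sense coverage. CycA, CycB3 and fzr RA had none in that window.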

How the data were processed

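csRNA-seq TSSs of Canton S embryos were taken from the full list of 232302 and the deduplicated list of 46925 (1 TSS for each group of overlapping windows) that the authors deposited. The deposited coverage signal of a TSS is the number of read 5′ ends scaled to 10000000, with a minimum of 3. The authors trimmed adapters, aligned reads to dm6 with STAR and called TSSs with HOMER; the submitters' processing notes name bcl2fastq 2.17, HOMER 4.11, STAR 2.7.9a and bedtools 2.30.0. The deposited file with log2-scaled values repeats these TSSs and was not used, and the input library was not analysed here.

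TSSs within 200 bp on the same strand of a transcript start (Ensembl 115, 35694 transcripts of 18358 genes, transposable elements left out) were given to that gene and to its nearest promoter, and their coverage was summed. Reads and libraries were recovered from the step of the values. Intervals are 95%, exact Poisson for 1 TSS, the gamma method of Fay and Feuer for sums, and Poisson variance on the log scale for ratios. A percentile is the share of the 13968 protein-coding genes with lower coverage. The groups of TSSs up to 10 bp apart were chosen after seeing the positions. Steps were tested on simulated data. Python 3.11.15, NumPy 2.4.6, pandas 2.3.3 and SciPy 1.17.1 were used.

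The members and lists were chosen with earlier results of these data known. Named genes were all 10 members and, from each list of other cell cycle genes and of markers, the highest, the lowest and any without a TSS; zen was named after its value was seen. One listed gene, lmg, was not matched. Alternatives were distances of 50 and 500 bp, at least 4 reads, the deduplicated list, other joins of starts, the highest TSS, the nearest gene and, chosen after seeing the data, single libraries (ratios between members and promoters included) and coverage within 5 bp of the leading TSS. Promoter sequence was not used here.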

Additional observations from a re-analysis of the deposited data

Results flagged for a closer look

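More than 200 bp from any annotated start on their own strand, 6 TSSs inside member genes had a coverage of 20 or more. A count of 0 allows a coverage of 5.06 or 7.37 (3 reads of the library that gave the value). Any TSS chosen for 20 or more exceeds this, so it is no test. The 6 TSSs entered none of the sums at annotated starts, but are part of the sums inside genes and, for stg antisense, of the upstream antisense values above. The highest was an antisense TSS in an intron of CycA at 3L position 11832840, with 211 (169 to 261, 86 reads), 3463 bp from the nearest annotated start on its strand, that of CG7264. This was above every sense TSS of CycA except the leading one.

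CycE had a sense TSS of 49.1 (20 reads) in an exon at 2L position 15745571, 1039 bp downstream of an annotated start, and 1 of 27.0 (16 reads) in an intron at 15733669, 1885 bp upstream of the RB start. The former equalled the highest base of the annotated RA and RE promoter. At stg an antisense TSS at 3R position 29255640 had 28.7 (17 reads), 160 bp from the RB start of stg on the other strand and 845 bp from the start of CG45544, and a sense TSS in an exon at 29253948 had 23.6 (14 reads). CycB3 had a sense TSS of 22.1 (9 reads) in an exon at 3R position 24869446. None of these flagged TSSs was compared here with the input library.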

How the results depend on the processing

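The ratio of stg to twe stayed above 1 but moved to 149 at 50 bp, 41.6 with at least 4 reads, 152 in the deduplicated list, and 8.41, 3.64 and 112 in TSSs from the libraries of 7299457, 5931389 and 4070746 reads. The share of stg at RA was 59.5%, 97.5% and 99.2% in these libraries. The share of CycE at RB moved to 81.5% (deduplicated list), 83.8% (library of 5931389 reads), and fell below 50% in the libraries of 7299457 (39.7%) and 4070746 (28.1%). The share of fzr at RB moved to 87.5% (deduplicated list), 71.6%, 6.25% and 68.9% in the libraries of 7299457, 5931389 and 4070746 reads, the second of these a reversal. The share of protein-coding genes with a TSS was 67.8% at 50 bp, 72.1% at 500 bp, 63.9% with at least 4 reads and 68.7% in the deduplicated list. The members' median percentile was 90.9 (deduplicated list), 91.3 (highest TSS), and 93.3, 87.5 and 90.5 by library. The number of member promoters that reached a 50% share was 5 by the leading TSS. It became 6 with at least 4 reads, where CycE RB went from 49.8% to 52.7%. Counting coverage within 5 bp of the leading TSS made it 8. Such a share is never below that of the leading TSS alone, so this count could not fall. It has no background value, because the 6666 promoters were compared by the leading TSS only. Among single promoters and genes, 88 values moved beyond their counting interval and 110 did not. Some of these outcomes were fixed in advance. Keeping 1 TSS for each group cannot raise a coverage, and leaving out TSSs under 4 reads could not move a leading TSS. The counts of 88 and 110 therefore do not measure how robust the values are. The choices by library and within 5 bp were made after seeing the data. The cause of these changes was not tested, except that the deduplicated list keeps fewer TSSs and a library's TSSs leave out the bases valued from another. Values by library are therefore no second measurement of the full ones. No replicate could be left out, because only 1 library stands behind each value. The planned motif comparison was not run, since no genome sequence was used here. No paired analysis was possible because there is 1 group of csRNA libraries. Depth limits the weak promoters: at CycB RB, 15 reads allow a coverage from 17.0 to 51.6. These reads were not told apart from those inside the gene away from starts.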
